A study of Saccharomyces cerevisiae with 6 samples.

Results

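The genes described here encode the nucleotide exchange factors of cytosolic Hsp70 in budding yeast: SSE1, its paralogue SSE2, FES1 and SNL1. They were chosen by name through the array's gene annotation, and each of the 4 genes has 1 probe set among the 5449 genes measured. Both groups lack SSE1. The yEVenus group (3 arrays) carried a multi-copy plasmid for a yellow fluorescent protein that has no role in yeast, and the empty group (3 arrays) carried an empty plasmid. Each array came from an independent colony grown at 30 °C in leucine dropout medium to an optical density of 0.6 (exponential phase), and 200 ng of total RNA was labelled by priming at the 3' end. The labels give no wild-type cells, no strain background and no promoter for yEVenus, so a response can be described only within the sse1 deletion, and no value here measures yEVenus itself.

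Hsp70 chaperones bind unfolded protein while they hold ADP and release it when ADP is exchanged for ATP. J-domain proteins start this cycle by driving ATP hydrolysis, and exchange factors end it by opening the nucleotide pocket. Yeast cytosol has 3 structural families of exchange factor: Sse1 and Sse2 are Hsp110 proteins, distant relatives of Hsp70 itself; Fes1 is an armadillo-repeat protein of the HspBP1 family; Snl1 is a BAG-domain protein anchored in the endoplasmic reticulum membrane. Sse1 is the main Hsp110 of growing cells and Sse2 a stress-inducible copy, and loss of both genes is lethal.

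All values are RMA log2 expression levels, and each difference is yEVenus minus empty. "Rose" and "fell" are kept for genes whose Benjamini-Hochberg adjusted p over all genes was under 0.05 in limma. By that rule 70.4% of all genes changed, 41.0% downward and 29.3% upward, and the groups did not overlap for 74.9%. With the array-wide trend on gene length removed, 33.5% fell and 31.4% rose. A call is therefore common on these arrays. The gap between 3' and 5' control probe sets of 7 yeast genes averaged 2.48 ± 0.0668 on the yEVenus arrays and 1.83 ± 0.0291 on the empty-plasmid arrays (SD, n = 3 each). Genes of chromosomes I and II had median differences of -0.44 and -0.32, against -0.12 to 0.02 for the other 14 chromosomes. The labels give no mating type; 7 a-specific genes had mean log2 levels of 8.02 to 12.8, and 4 alpha-specific genes 3.65 to 8.64.

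Of the 4 exchange factor genes, SSE2 fell with yEVenus and the deleted SSE1 did not pass the test. FES1 fell too, but lost its call under 7 of 19 other settings, among them the removal of its chromosome's median and the omission of any 1 yEVenus array. SNL1 rose, but turned in direction with the length trend removed. Changed genes are thus 3 of 4, beside the 70.4% of all genes, and the same 3 had groups that did not overlap, beside 74.9%. The largest difference was that of SSE2, at 1.80-fold lower.

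**Figure D1:**
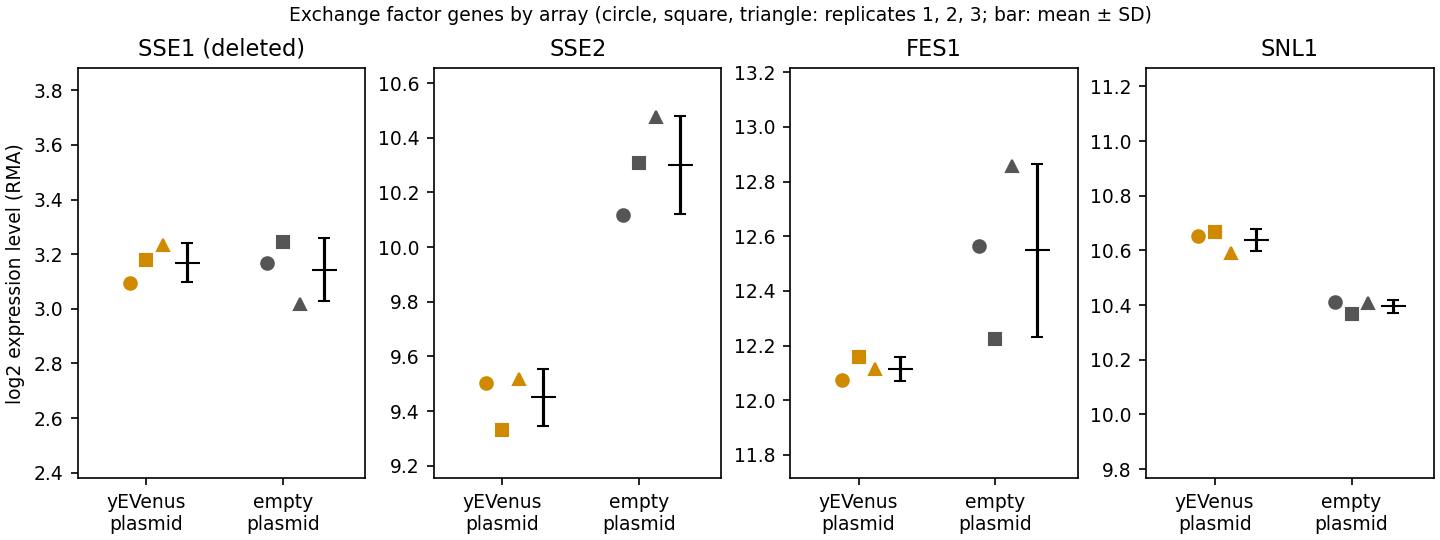
Log2 expression level (RMA) of SSE1, SSE2, FES1 and SNL1 on each array, yEVenus plasmid at left and empty plasmid at right in each panel; the bars are mean ± SD (n = 3), and every panel spans the same 1.5 log2 units. SSE2 is lower on every yEVenus array by a wide gap, FES1 is spread from 12.22 to 12.86 on the empty-plasmid arrays, SNL1 is slightly higher on every yEVenus array, and SSE1 overlaps.

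SSE1 (YPL106C, chromosome XVI, coding length 2082 nt) had log2 levels of 3.09, 3.18 and 3.23 on the yEVenus arrays, against 3.17, 3.24 and 3.02 on the empty-plasmid arrays. These lie where probe sets with no yeast target lie. The median over 23 such control probe sets was 3.07 to 3.17 on the yEVenus arrays and 2.94 to 3.05 on the empty-plasmid arrays. The groups overlapped, and the difference was 0.03 (95% interval -0.14 to 0.19; limma, adjusted p = 0.766). The level was that of background on all 6 arrays, and both groups are labelled as deleted for the gene.

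SSE2 (YBR169C, chromosome II, coding length 2082 nt) had log2 levels of 9.50, 9.33 and 9.52 on the yEVenus arrays, against 10.12, 10.31 and 10.48 on the empty-plasmid arrays. The lowest empty-plasmid array stood 0.60 above the highest yEVenus array. The difference was -0.85 ± 0.0968 (SE; 95% interval -1.08 to -0.63; limma, adjusted p = 1.47e-04). Only 136 of the 5449 genes had a more negative difference. The remaining cytosolic Hsp110 gene of these cells was thus at 9.45 ± 0.103 with yEVenus and 10.30 ± 0.181 with the empty plasmid (SD, n = 3 each). In bulk RNA of this kind, fewer cells that express a gene and less RNA per cell cannot be told apart.

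The spread of SSE2 within a group was small beside the difference between groups. Against empty-plasmid replicates 1, 2 and 3 taken singly, the yEVenus mean differed by -0.67, -0.86 and -1.03. Its SD among empty-plasmid colonies was nevertheless above the median SD of all genes there, 0.0804, and 556 genes had a larger one. Leaving out any array kept the call, with differences of -0.94 to -0.76.

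FES1 (YBR101C, chromosome II, coding length 873 nt) had log2 levels of 12.07, 12.16 and 12.11 on the yEVenus arrays, against 12.56, 12.22 and 12.86 on the empty-plasmid arrays. The groups did not overlap, but only by 0.067, the step between yEVenus replicate 2 and empty-plasmid replicate 2. The difference was -0.43 ± 0.139 (SE; 95% interval -0.76 to -0.11; limma, adjusted p = 0.0235), or 1.35-fold lower. The means were 12.11 ± 0.0427 with yEVenus and 12.55 ± 0.316 with the empty plasmid (SD, n = 3 each). FES1 transcripts are known to be processed into forms for a cytosolic and a nuclear protein, and 1 probe set does not tell these apart.

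The size of the FES1 fall rested on which empty-plasmid colonies were compared. It was -0.60 without empty-plasmid replicate 2 (limma, adjusted p = 8.22e-04) and -0.28 without empty-plasmid replicate 3 (adjusted p = 0.0454). The call ended when any yEVenus array was left out, with adjusted p of 0.0739, 0.0533 and 0.0534 in limma for replicates 1, 2 and 3, and differences of -0.41, -0.46 and -0.43.

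SNL1 (YIL016W, chromosome IX, coding length 480 nt) had log2 levels of 10.65, 10.67 and 10.59 on the yEVenus arrays, against 10.41, 10.37 and 10.41 on the empty-plasmid arrays. Every yEVenus array was above every empty-plasmid array, by at least 0.18. The difference was 0.24 ± 0.0483 (SE; 95% interval 0.13 to 0.35; limma, adjusted p = 0.00252), or 1.18-fold higher. SNL1 was the steadiest of the 3 expressed members, with SDs of 0.0405 on the yEVenus arrays and 0.0251 on the empty-plasmid arrays. The difference turned to -0.11 (limma, adjusted p = 0.0423) with the length trend removed.

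Differences between members within an array were also set against each other. The log2 level of SSE2 minus that of SNL1 was -1.19 ± 0.134 on the yEVenus arrays and -0.09 ± 0.185 on the empty-plasmid arrays (SD, n = 3 each), a change of -1.09. SSE2 minus FES1 was -2.66 ± 0.141 on the yEVenus arrays and -2.25 ± 0.288 on the empty-plasmid arrays, a change of -0.42. FES1 minus SNL1 was 1.48 ± 0.0534 and 2.15 ± 0.295 on the yEVenus and the empty-plasmid arrays, a change of -0.68. These contain each probe set's own brightness, so only the changes carry information. In exact permutation tests (two-sided) each of the 3 changes had p = 0.1, the smallest that groups of 3 allow. Removal of the length trend gave changes of -0.56, -0.22 and -0.34 in the order given (exact p = 0.1, 0.4 and 0.3), and without empty-plasmid replicate 2 that of SSE2 minus FES1 was -0.25.

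SSE2 and FES1 both lie on the right arm of chromosome II, the 263rd and the 199th of its 387 measured genes in gene order. On that chromosome 60.5% of genes fell and 18.3% rose. The median deviation of its genes from their own means was -0.13, -0.17 and -0.15 on the yEVenus arrays and 0.16, 0.14 and 0.14 on the empty-plasmid arrays. The shift was thus alike on the 3 arrays of each group. The SSE2 and FES1 values were also set relative to their surroundings. For this the chromosome's median, or that of the 20 genes on each side, was taken from each array. The part of the shift in either gene's value was not tested.

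**Figure D2:**
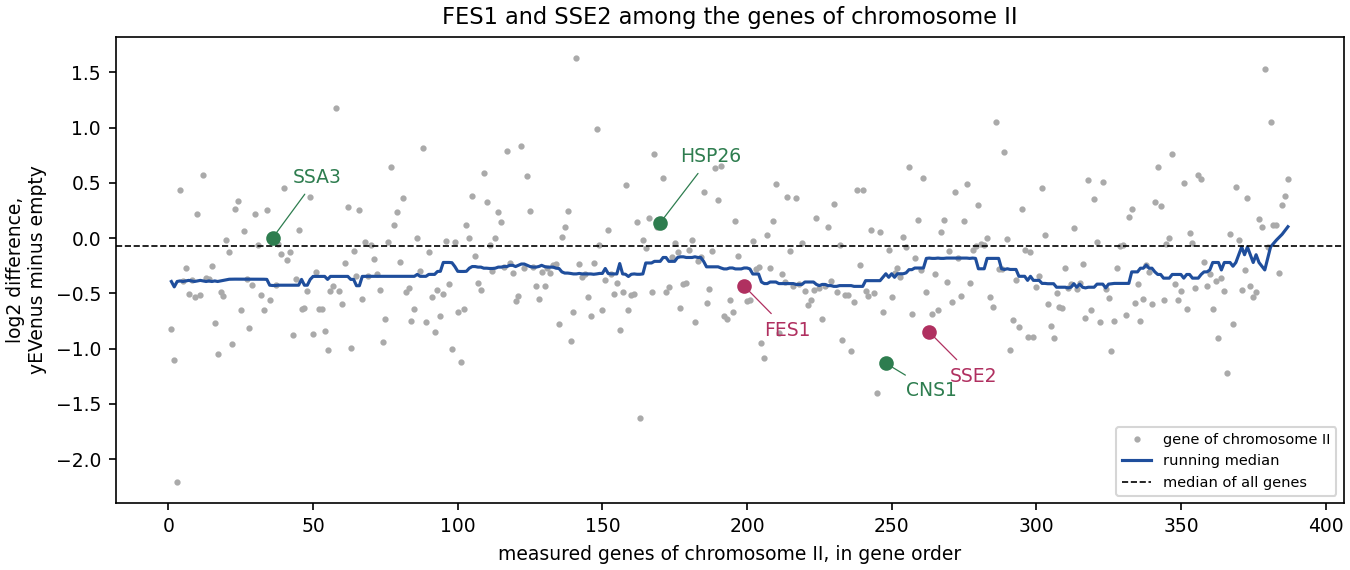
Log2 difference (yEVenus minus empty) of the 387 measured genes of chromosome II in gene order, with a running median over 41 genes and the median of all genes on the array as a dashed line. The running median lies below the dashed line over nearly the whole chromosome; FES1 is near it, and SSE2 and the Hsp90 co-chaperone gene CNS1 are well below it.

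SSE2 passed the test against its surroundings, with the length trend left in. Relative to the other genes of chromosome II its difference was -0.55 (limma, adjusted p = 0.00164), and 27 of those 386 genes had a more negative one. Relative to its 40 nearest measured genes it was -0.68 (adjusted p = 5.19e-04), and 2 of the 40 were lower. The genes beside it were NPL4, a cofactor of the Cdc48 segregase, at -0.69, and PEX32, of the peroxisome membrane, at -0.49. One gene further, SEC66, of the protein translocation complex, was at -0.32, and POP7, a subunit of RNase P, rose by 0.54.

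FES1 did not pass the test against its surroundings. Relative to the other genes of chromosome II its difference was -0.14 (limma, adjusted p = 0.407), with 149 of 386 genes lower, and relative to its 40 nearest genes it was -0.17 (adjusted p = 0.317), with 12 of 40 lower. Its direct neighbours EXO84, of the exocyst, and MMS4, an endonuclease subunit, fell, with differences of -0.57 and -0.41. SIF2, of the Set3 histone deacetylase complex, fell by 0.56, and VPS15, a protein kinase of vacuolar sorting, was at -0.16 and did not pass.

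Other chaperone genes of chromosome II differed from one another. CNS1, a co-chaperone of Hsp90, fell by 1.13, and was at -0.84 relative to the chromosome's other genes. The Hsp70 gene SSA3 was at 0.002 and the small heat shock gene HSP26 at 0.14, and neither passed (limma, adjusted p = 0.975 and 0.483). Relative to the chromosome's other genes they were at 0.30 and 0.44.

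SNL1 lies on chromosome IX. The median of the chromosome's other genes was -0.005, and relative to them SNL1 was at 0.25. Its 40 nearest genes had a median difference of -0.15, with 18 falls and 15 rises, and with their median taken from each array SNL1 was at 0.32 (limma, adjusted p = 0.00154). Its neighbour VID28, of glucose-induced enzyme degradation, fell by 0.18, and BAR1, the protease that degrades alpha factor, rose by 0.41. Of the next genes, the short YIL014C-A rose by 1.29 and the ribosomal protein gene RPL2B was at 0.08, which did not pass. Around the deleted SSE1, YPL108W rose by 0.71 and SYH1 fell by 0.30, while GDE1 and MSD1, at 0.17 and -0.07, did not pass.

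Differences also varied with gene length, and short genes tended to be higher and long genes lower on the yEVenus arrays. Genes within 10% of the length of SNL1 had a median difference of 0.35 (n = 247), and 167 of them rose and 19 fell. The rise of SNL1 was thus smaller than the median of genes of its size. Genes within 10% of the length of SSE2 had a median of -0.22 (n = 496), and 273 fell and 60 rose. Genes of the length of FES1 had a median of 0.02 (n = 543), with 175 falls and 198 rises. With the length trend removed, SSE2 was at -0.68 (limma, adjusted p = 4.98e-04) and FES1 at -0.45 (adjusted p = 0.0240). The same removal put the deleted SSE1 at 0.20 (adjusted p = 0.0305), although its level is that of background.

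The spread of FES1 among empty-plasmid colonies was one of the wider ones on the array. On the yEVenus arrays 3982 of 5449 genes had a larger SD than FES1, and on the empty-plasmid arrays 109 did. FES1 is a known target of Hsf1, the heat shock transcription factor, whose other targets include cytosolic chaperone genes. After the FES1 values were seen, the same empty-plasmid arrays were looked up for 18 other genes known to depend on Hsf1. Of these, 17 were higher on empty-plasmid replicate 3 than on replicate 2, as were 48.0% of all genes. The step was very small for some of the 17, at 1.6e-04 for HSC82 and 0.003 for SSA1. The order of FES1 (replicate 3 above 1 above 2) was shown by 11 of the 18, or 61.1%, and by 12.4% of all genes. Some of the 11 were near-ties, such as CPR6 with 12.0821 and 12.0806 on replicates 1 and 2. That order was read from FES1 on the same 3 arrays, and genes that share a regulator are not separate observations. The part of Hsf1 in this spread was not tested.

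**Figure D3:**
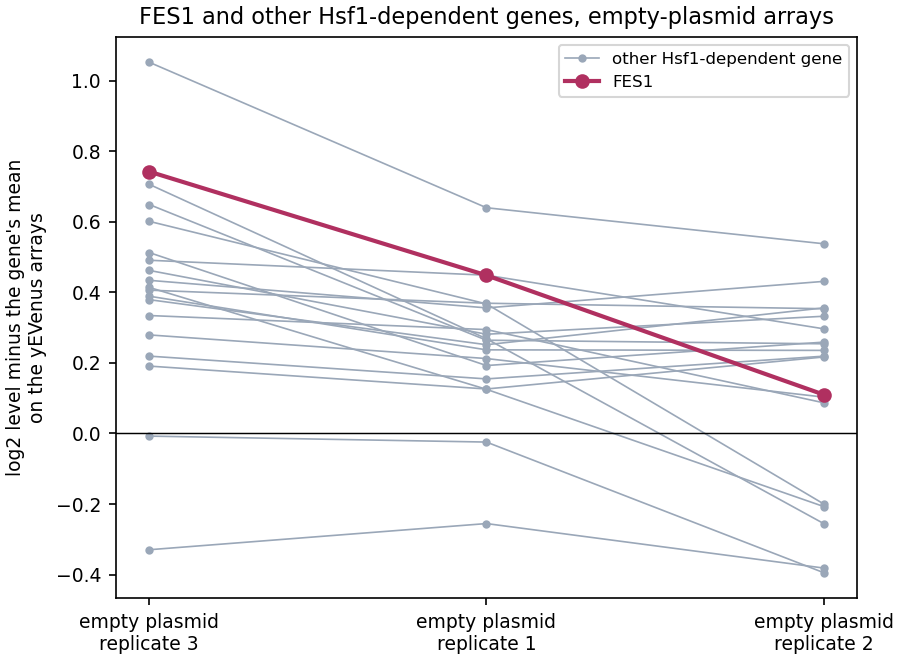
Log2 level of FES1 (red) and of 18 other genes known to depend on Hsf1 (grey) on the 3 empty-plasmid arrays, each as the difference from the gene's own mean on the yEVenus arrays; the arrays are placed in the order of FES1, and lines only join values of 1 gene. FES1 runs from 0.74 on replicate 3 to 0.11 on replicate 2, and several other genes run the same way, some ending below 0.

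Among the 18, the widest steps between replicates 3 and 2 were those of BTN2, CUR1, APJ1 and HSP42. On the whole array 23 genes had a wider step than FES1. BTN2, which sorts misfolded proteins into inclusions, had 11.86, 11.34 and 12.30 on empty-plasmid replicates 1, 2 and 3, and its paralogue CUR1 had 9.54, 8.97 and 9.77. APJ1, a J-domain gene, had 8.60, 8.27 and 8.89, and HSP42, a small heat shock gene, 11.87, 11.77 and 12.29. For BTN2, CUR1 and APJ1 the empty-plasmid replicate 2 value minus the yEVenus mean was -0.26, -0.20 and -0.21. Other targets had steps from -0.03 (SSA2) to 0.39 (MDJ1 and MBF1), with 0.003 for SSA1, 0.13 for HSP82 and 0.25 for SIS1. SSE2 was also higher on replicate 3 than on replicate 2, but its lowest empty-plasmid array was replicate 1, at 10.12. Control probe sets for the bacterial genes dap, lys, phe and thr had medians of 4.997, 4.50 and 5.54 on empty-plasmid replicates 1, 2 and 3, in the same order as FES1; their part in it was not tested.

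Against the yEVenus arrays, 12 of the 18 other Hsf1-dependent genes fell and 1 rose, beside 41.0% and 29.3% of all genes, with a median difference of -0.27, beside -0.07 over all genes. HSP42 had a difference of -0.74, HSP104, the disaggregase, one of -0.41, and MDJ1, a mitochondrial J-domain gene, one of -0.39. HCH1, an activator of Hsp90, rose by 0.32. With the length trend removed 7 fell and 0 rose, beside 33.5% and 31.4% of all genes, at a median of -0.17, beside -0.01. HCH1 was then at -0.06. BTN2 and CUR1, at -0.24 and -0.26, did not pass (limma, adjusted p = 0.326 and 0.226).

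The Hsp70 genes that these factors act on mostly fell with yEVenus, with smaller differences than that of SSE2. Of 7 cytosolic Hsp70 genes, 5 fell and 0 rose, beside 41.0% and 29.3% of all genes, with a median of -0.25, beside -0.07. SSA1, an abundant general Hsp70, was at 12.96 with yEVenus and 13.37 with the empty plasmid, a fall of 0.41. It lies on chromosome I, and relative to that chromosome's other genes it was at -0.0007. Its near-identical copy SSA2, on chromosome XII, fell by 0.18. The heat-inducible SSA4 was at -0.27 and did not pass (limma, adjusted p = 0.0632). The ribosome-bound SSB1 and SSB2 fell, with differences of -0.18 and -0.25, and so did their partner SSZ1, at -0.58. Probes of SSA1 and SSA2, and of SSB1 and SSB2, may read both copies. With the length trend removed, 2 of the 7 fell, 1 rose (SSA3, at 0.16) and the median was -0.10, beside 33.5% falls, 31.4% rises and a median of -0.01 over all genes.

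**Figure D4:**
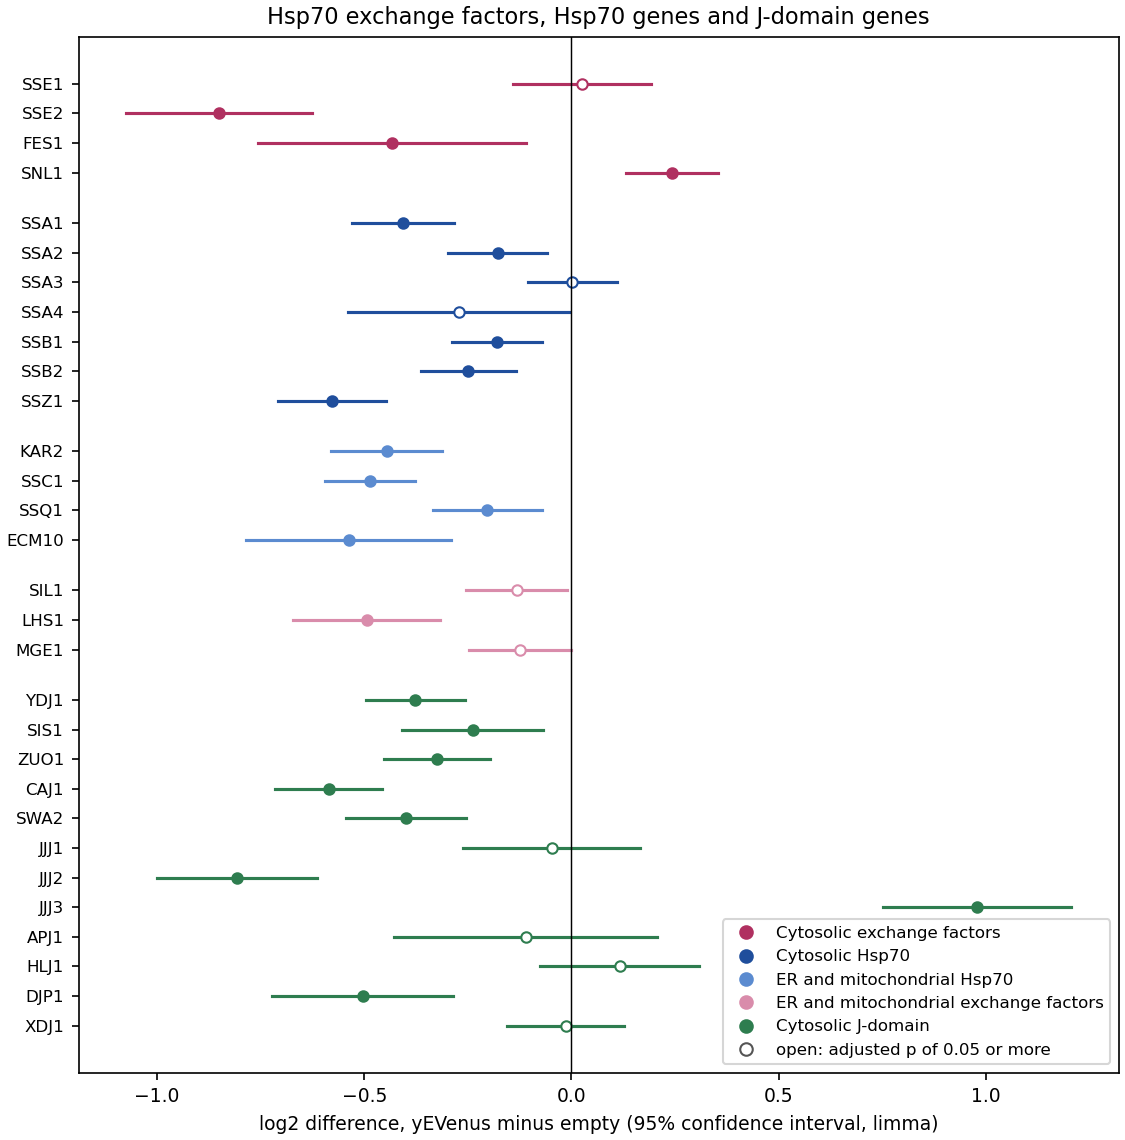
Log2 difference (yEVenus minus empty) with its 95% confidence interval for the cytosolic exchange factor genes, the Hsp70 genes, the exchange factors of other compartments and the cytosolic J-domain genes; filled points have an adjusted p under 0.05 in limma. SSE2 (-0.85) and JJJ2 (-0.81) are the lowest, JJJ3 (0.98) the highest, and SNL1 is the exchange factor that lies above 0 with an interval that does not reach it.

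Exchange factors of other compartments were lower by varying amounts. LHS1, the Hsp110-type exchange factor of the endoplasmic reticulum, was at 8.62 with yEVenus and 9.11 with the empty plasmid, a fall of 0.49 (limma, adjusted p = 6.75e-04). SIL1, which serves the same Hsp70, Kar2, was at -0.13, and MGE1, the exchange factor of the mitochondrial matrix, at -0.12; neither passed (adjusted p = 0.0508 and 0.0652). All 3 had groups that did not overlap, as did 74.9% of all genes. LHS1 and MGE1 fell with the length trend removed, at -0.26 and -0.25, and SIL1 was at 0.03. All 4 Hsp70 genes of these compartments fell (median -0.47; 3 with the length trend removed, median -0.30), beside 41.0% of all genes and 33.5% with the trend removed. KAR2, the Hsp70 gene of the endoplasmic reticulum, was at -0.45, and the mitochondrial genes SSC1, ECM10 and SSQ1 were at -0.49, -0.54 and -0.20. ECM10 was dim, with mean levels of 4.77 with yEVenus, where probe sets with no target reached 4.32, and 5.31 with the empty plasmid.

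The cytosolic J-domain genes, whose products act at the other end of the Hsp70 cycle, had 7 of 12 falling and 1 rising, with a median of -0.28. That is 8 of 12 called, near the 70.4% of all genes, whose median was -0.07. YDJ1 and SIS1, the main partners of Ssa proteins, were at -0.38 and -0.24. JJJ2 was at -0.81, CAJ1 at -0.59 and DJP1, of peroxisomal import, at -0.50. SWA2, the yeast auxilin, was at -0.40 and ZUO1, of the ribosome-associated complex, at -0.32. JJJ3, of diphthamide synthesis, rose by 0.98, and by 0.67 with the length trend removed. With that trend removed, 6 fell and 2 rose at a median of -0.16, beside 33.5% and 31.4% of all genes and a median of -0.01.

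Among partners of Hsp70 in disaggregation and in handover to Hsp90, 9 of 10 fell and 0 rose (median -0.39), beside 41.0% and 29.3% of all genes (median -0.07). Once the length trend was removed, 7 fell and 0 rose (median -0.19), beside 33.5% and 31.4% (median -0.01). CPR7 and SBA1, co-chaperones of Hsp90, were at -0.54 and -0.50, and the Hsp90 genes HSP82 and HSC82 at -0.36 and -0.20. STI1, which links Hsp70 to Hsp90, was at -0.33 and CPR6 at -0.29. The gene lists overlap, so their counts are not separate. HSP104, HSP42, STI1, HSC82, HSP82 and CPR6 were also counted among the Hsf1-dependent genes. So were SSA1 and SSA2 of the Hsp70 genes and YDJ1, SIS1 and APJ1 of the J-domain genes.

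The genes most like each member over the 6 arrays were named by the root mean square distance between log2 profiles, each centred on its own mean. For SSE2 the nearest were DOS2, RAD14, SIP5, MOB2 and YDR222W, at 0.0385 to 0.0592, with differences of -0.89 to -0.78; none lies on chromosome II. For FES1 they were YHL009W-A, RAD34, LHS1, ERJ5 and COM2, at 0.0791 to 0.112. LHS1 and ERJ5 encode an exchange factor and a J-domain protein of the endoplasmic reticulum, and YHL009W-A is a retrotransposon sequence near background on all 6 arrays. RAD34 was also dim, at 4.43, 4.52 and 4.53 on the yEVenus arrays, where probe sets with no target reached 4.32. For SNL1 they were VPS71, IGO1, COF1, DGK1 and ERG10, at 0.0113 to 0.0187, with differences of 0.23 to 0.27. The choice itself keeps their differences near that of the member. The lists do not share a gene, which also follows from the choice.

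**Figure D5:**
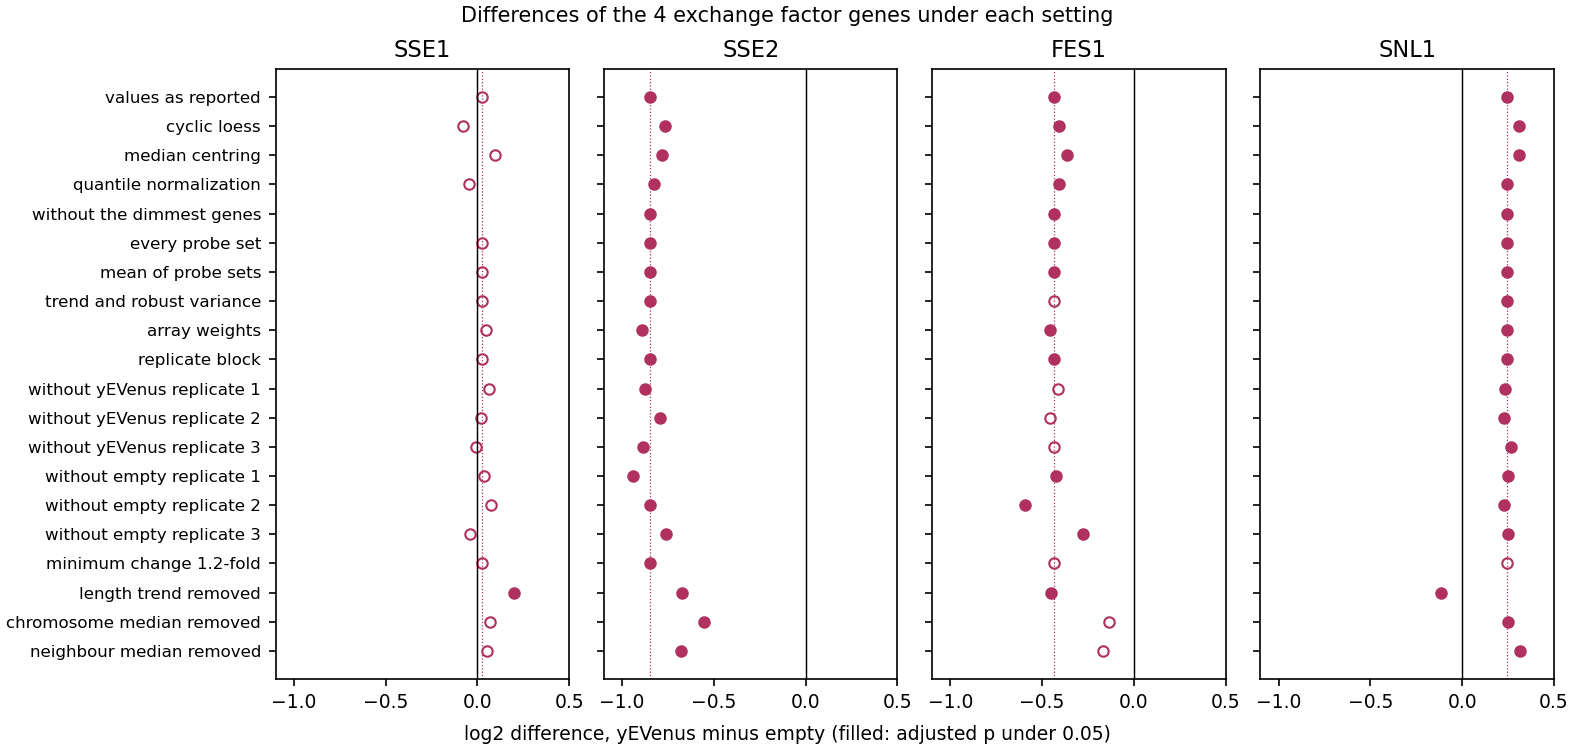
Log2 difference (yEVenus minus empty) of SSE1, SSE2, FES1 and SNL1 as reported (top, dotted line) and under each other setting; filled points have an adjusted p under 0.05. SSE2 stays between -0.94 and -0.55 and filled throughout, FES1 is open under 7 settings, among them the removal of its chromosome's shift and the omission of any 1 yEVenus array, and SNL1 is open against a minimum change and crosses 0 with the length trend removed.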

How the data were processed

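Total RNA of 6 yeast cultures was measured on Affymetrix expression arrays. The deposited values are log2 levels of each probe set; the submitters' processing notes name RMA (background correction, equal array distributions, probe summary) and R 3.2.0, and the genome build is not given in the sources used here. Array medians were 9.06 to 9.13. Of 5900 probe sets, 5498 name 1 gene, 0 several and 402 none, 137 of them controls. Names and lengths came from the R64 RefSeq gene table (5498 matched, 12 symbols updated). Some lengths are not those of a coding sequence alone, as 97.0% were multiples of 3. The brightest probe set was kept for 47 genes with several, leaving 5449. No sequence was used.

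The fit used limma 3.58.1 under R 4.3.3 (lmFit, eBayes, 4 residual degrees of freedom, no block), with Benjamini-Hochberg adjustment over all genes. Paired differences between members used exact permutation tests. The test was checked on simulated data. Members and lists were chosen with earlier results of these data known. By rule, all members, named Hsp70 and exchange factor genes, up to 4 list genes per direction, 2 neighbours on each side and the 5 nearest profiles are named; some further list genes (BTN2, CUR1, APJ1 and others) were named after their values were seen. The number of arrays limits the precision. Alternatives were other normalizations, probe set rules, variance models, array weights, a dim-gene filter (lowest 20%), a minimum change, a replicate block, leaving out arrays, and removing a length trend (loess, span 0.5) or the median of the chromosome or of 40 neighbours.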

Additional observations from a re-analysis of the deposited data

Results flagged for a closer look

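Some sets of control probe sets, which are no part of the tests above, were higher on the yEVenus arrays than on the empty-plasmid arrays. The control probe sets for the bacterial genes dap, lys, phe and thr, which array kits supply as spike-in transcripts, had a median log2 difference of 1.69 over 36 probe sets, and for 33 of them every yEVenus array was above every empty-plasmid array. Their medians were 6.91, 6.80 and 6.42 on yEVenus replicates 1, 2 and 3 and 4.997, 4.50 and 5.54 on the empty-plasmid replicates. The labels do not say whether or in what amount these transcripts were added. The hybridisation controls bioB, bioC, bioD and cre had a median difference of 0.54, with 25 of 27 higher on every yEVenus array. Probe sets of 18S and 25S ribosomal RNA went the other way, with median differences of -0.39 and -0.27 and groups that overlapped. The gap between 3' and 5' probe sets of 7 yeast genes was larger by 0.65 on the yEVenus arrays, with all 7 genes larger on every yEVenus array. The part of these in the exchange factor values was not tested.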

How the results depend on the processing

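SSE2 kept its direction and its call under all 19 alternatives, with differences of -0.94 to -0.55. Each alternative was applied singly: SSE2 was at -0.68 with the length trend removed and at -0.55 with the chromosome's median removed. Removal of both together was not tested. FES1 kept its direction, but did not pass with a trended robust variance (-0.43, adjusted p = 0.0686), against a minimum change of 1.2-fold (-0.43, adjusted p = 0.294), with the chromosome's median removed (-0.14) or with that of its neighbours removed (-0.17). Without 1 array its difference was -0.60 to -0.28. SNL1 did not pass against the minimum change (0.24, adjusted p = 1) and turned to -0.11 with the length trend removed. SSE1, at background, was at -0.0807 under cyclic loess, -0.0464 under quantile normalization, 0.20 with the length trend removed and -0.0381 to 0.0759 without 1 array. It is among the dimmest genes and has no value without them. The 3 differences between members kept their sign under all 11 alternatives each, but with the length trend removed SSE2 minus FES1 was -0.22, SSE2 minus SNL1 -0.56 and FES1 minus SNL1 -0.34. Without 1 array they were -0.52 to -0.25, -1.19 to -1.01 and -0.82 to -0.53. The count of changed genes, 3835, was 1753 against the minimum change and 3243 (without the dimmest genes) to 3902 otherwise.

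With the replicate number as a block, the differences were unchanged by construction and SSE2, FES1 and SNL1 kept their calls (adjusted p = 4.87e-04, 0.0242 and 0.00846), with 3827 genes changed. Deviations of arrays with the same number had correlations of 0.19, -0.13 and 0.20 across genes. Arrays with different numbers were not compared in this way, so these values cannot decide whether the number pairs the arrays. The cause of the lost FES1 call with the trended variance was not tested.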

Other observations

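Genes for the degradation of misfolded cytosolic proteins, the fate of clients that Hsp70 does not refold, were also looked up. Of 10 measured, 3 fell and 2 rose, beside 41.0% and 29.3% of all genes, with a median difference of 0.01, beside -0.07. UBC6, a ubiquitin-conjugating enzyme of the endoplasmic reticulum membrane, was at -0.49, the ubiquitin ligase gene RSP5 at -0.34 and the ligase gene SSM4 at -0.22. UBC7 and its membrane anchor gene CUE1 rose by 0.49 and 0.20. With the length trend removed, 2 fell and 5 rose, beside 33.5% and 31.4% of all genes. On the values as reported, the ligase genes UBR1 and SAN1, at -0.11 and 0.07, did not pass (limma, adjusted p = 0.0998 and 0.351). Nor did the polyubiquitin gene UBI4, at -0.01 (adjusted p = 0.917). UBR1 and SAN1 rose once the length trend was removed, at 0.22 and 0.21 (limma, adjusted p = 0.0038 and 0.0168).

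Probe sets for ribosomal RNA spread widely among the empty-plasmid colonies. The median over 8 probe sets of 18S rRNA was 9.09, 9.64 and 9.15 on yEVenus replicates 1, 2 and 3, against 8.32, 9.50 and 10.25 on the empty-plasmid replicates. SSE2 was also lowest on empty-plasmid replicate 1 and highest on replicate 3; the part of this spread in the SSE2 values was not tested.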
